A study of Mus musculus with 6 samples.

Results

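The Myc, Max and Mxd network was taken as 9 genes (Myc, Mycn, Mycl, Max, Mnt, Mga, Mxd1, Mxd4 and Mxi1) of the 21938 protein-coding genes on the standard chromosomes of mm10. The genes were listed by name, and no measured value enters the rule. Their acetylation was read from H3K27ac peaks that overlapped a gene or the 20 kb on each side of it, and for Myc also the 500 kb on each side. Peaks of the 4 libraries that shared at least 1 base were merged into regions. Of the 182956 merged regions, 80 lay in the 20 kb windows, 120 lay in the 500 kb window of Myc, and 197 lay in either.

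The cells were B16 F10, a mouse melanoma line, seeded at 100 cells per cm2 and taken on day 5 of a culture in which they pigment over time. Low pigment (LP) and high pigment (HP) cells were sorted from the culture by flow cytometric side scatter and fixed in 1% formaldehyde for 10 minutes. No genotype or drug separated them, and there were 2 replicates of each. The labels do not say that the replicates were grown separately. The p-values thus measure only the spread between these libraries, pooled over all regions tested. IgG libraries of unsorted cells, 1 per replicate set, served as the peak caller's control and were not analysed here. A sorted population can hold cells of different acetylation, so a change in a part of the cells and a change in every cell cannot be told apart.

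Myc, Mycn and Mycl are basic helix-loop-helix leucine zipper factors that bind E-box DNA only as heterodimers with Max, and Myc raises transcription of genes for growth, ribosome production and the cell cycle. Mnt, Mxd1, Mxd4 and Mxi1 pair with the same Max and recruit Sin3 corepressors, so that they compete with Myc at shared sites, and Mga carries a T-box domain beside its Max-binding domain. In the melanocyte lineage Myc is known for proliferation, whereas members of the Mxd group are known to increase as many cell types differentiate. H3K27ac marks active promoters and enhancers.

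The E-box read by Myc-Max and Mxd-Max dimers, CACGTG, was searched in RefSeq promoters of GRCm38.p6 (250 bases before and 50 after a start), and 8 of the 9 genes matched an entry. Myc had no entry. The letters occurred in 1 promoter each of Max, Mnt and Mxd4, and in none of those of Mycn, Mycl, Mga, Mxd1 and Mxi1, against 7.15% of all 32851 RefSeq promoters. The sequences below are 30 bases around each E-box of a member promoter, from chr12:76962234-76962263 and chr5:34187912-34187941 on the minus strand and chr11:74830789-74830818 on the plus strand. The last sequence is from a region inside Mxd1 (chr6:86655934-86655963, plus strand) that was called in 3 libraries, in an intron of Mxd1 and, in RefSeq, over an exon of the noncoding gene Gm38850. All are written 5′ to 3′ with matched motifs in capitals.

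Max promoter: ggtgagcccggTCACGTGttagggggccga

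Mnt promoter: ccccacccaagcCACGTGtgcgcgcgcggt

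Mxd4 promoter: gggctgggccacCACGTGctgttgctaagc

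Mxd1 intron: tccctctgaggTCACGTGtcTCATGTGgca

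The E-box of Max began at position −3 from the RefSeq start, that of Mnt at −123 and that of Mxd4 at −219. The Max match was also a TCACGTG, a form that the melanocyte factor Mitf binds and that contains CACGTG, which 3.77% of all promoters held. Both TCACGTG and TCATGTG, the second letter string searched for Mitf, stood in the Mxd1 intron. CTTTGAT, searched for Lef1 and Tcf factors, was in none of the member promoters and in 3.73% of all promoters. All motifs were searched on both strands.

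The next sequences are up to 300 bases centred on the summits of regions away from annotated exons that were called in both HP libraries and no LP library (at Mnt, Mxi1 and within Pvt1, the noncoding RNA gene downstream of Myc), and of the single region that was called in both LP libraries and no HP library. They are on the plus strand, from chr11:74834345-74834644, chr19:53364907-53365206, chr15:62134147-62134446 and chr15:61961451-61961750.

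Mnt intron, HP only: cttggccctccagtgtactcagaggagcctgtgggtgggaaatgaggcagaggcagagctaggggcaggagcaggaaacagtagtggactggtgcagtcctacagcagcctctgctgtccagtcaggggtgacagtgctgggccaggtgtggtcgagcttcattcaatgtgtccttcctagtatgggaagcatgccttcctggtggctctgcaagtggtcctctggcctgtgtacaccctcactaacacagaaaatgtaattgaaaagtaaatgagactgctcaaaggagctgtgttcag

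Mxi1 intron, HP only: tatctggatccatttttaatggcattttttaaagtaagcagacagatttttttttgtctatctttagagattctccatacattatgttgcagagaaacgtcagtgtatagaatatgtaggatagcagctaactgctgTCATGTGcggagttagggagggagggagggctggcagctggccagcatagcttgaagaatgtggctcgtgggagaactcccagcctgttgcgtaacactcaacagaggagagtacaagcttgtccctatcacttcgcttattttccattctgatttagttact

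Pvt1 intron, HP only: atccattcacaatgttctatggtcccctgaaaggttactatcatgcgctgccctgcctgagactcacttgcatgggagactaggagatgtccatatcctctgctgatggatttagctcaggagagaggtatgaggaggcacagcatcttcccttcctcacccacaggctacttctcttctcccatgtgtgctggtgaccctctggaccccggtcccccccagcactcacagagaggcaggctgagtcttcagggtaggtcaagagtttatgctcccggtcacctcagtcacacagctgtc

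Upstream of Myc, LP only: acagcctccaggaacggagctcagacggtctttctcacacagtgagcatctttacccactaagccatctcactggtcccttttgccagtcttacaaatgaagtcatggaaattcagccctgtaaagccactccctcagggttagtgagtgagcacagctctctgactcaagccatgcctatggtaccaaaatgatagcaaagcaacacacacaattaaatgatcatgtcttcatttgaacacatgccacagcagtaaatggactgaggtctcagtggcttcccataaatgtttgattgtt

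The Mxi1 region held 1 TCATGTG, which 5.10% of the 7200 HP-only summit windows and 5.46% of all merged windows of 300 bases also held. Neither this window nor those of Mnt and Pvt1 held CACGTG or CTTTGAT. Annotated repeats (soft-masked bases of the assembly) made up 18.0% of the Mxi1 window and 8.0% of the Mnt window, against a median of 10.3% over HP-only windows.

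Depth and overall level differed between the libraries. The LP libraries had 11467942 and 15353176 fragments, the HP libraries 11483830 and 14254904, and the peak lists held 57942 and 66580 peaks in LP and 64759 and 71529 in HP. The level of a region in a library is its scaled pileup, the fragments that cover its highest summit per 1000000 fragments of the library. A region with no peak in a library has no value there, and is written as not called. Over the 12084 regions called in all 4 libraries, the median log2 scaled pileup was 1.29 and 1.38 in LP against 1.97 and 2.72 in HP, so that the mean of the library medians was 1.01 higher in HP, which is the shift taken off in values given relative to the library medians. The median over regions of the log2 difference (HP minus LP) was 0.92. Of 8 melanocyte marker genes, 7 had a promoter region called in all 4 libraries. The 5 keratinocyte, 5 fibroblast and 5 immune marker genes had 0 and the 4 endothelial ones had 1 (Pecam1). Such a region was found for 10136 genes other than Myc, beside 21938 protein-coding genes in all.

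At the promoters, all 7 network genes with a region called in all 4 libraries had a higher mean level in HP, Myc most. The same held for 9996 of all 10064 promoter regions tested. Each of the 7 was tested with limma across the 12084 regions with Benjamini-Hochberg adjustment. Every log2 difference had the same standard error of 0.54. It was pooled over all regions and does not reflect a region's own replicate spread. None of the 7 passed an adjusted p of 0.05, and 1 (Myc) had an unadjusted p below it, as 33.4% of all promoter regions tested did. Of all promoter regions tested (within 3 kb of a start), 3.10% were called higher in HP, and 0% of all regions tested were called lower. The median log2 difference of the 7 promoters was 0.88, beside 0.90 over all 10064 promoter regions tested. An exact permutation test of 2 against 2 libraries cannot give a two-sided p below 0.333.

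**Figure D1:**
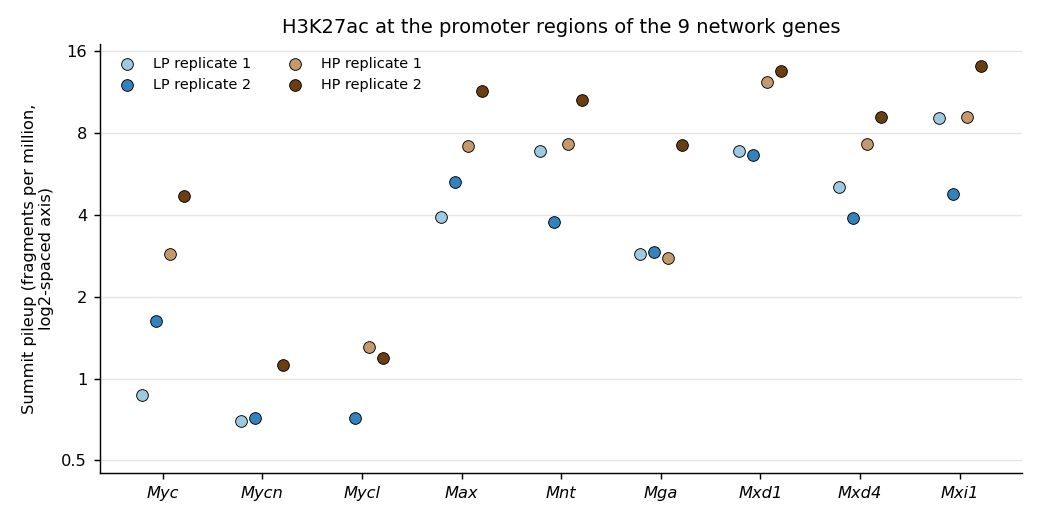
Scaled summit pileup (per 1000000 fragments, log2-spaced axis) of the promoter region of each of the 9 genes, 1 point per library, LP in blue and HP in brown. Myc, Mycn and Mycl lie lowest, Mycn lacks a point for HP replicate 1 and Mycl one for LP replicate 1 because no peak was called there, and the HP points of Myc lie above its LP points.

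Myc, the member that drives growth genes in most cell types, had its promoter region at chr15:61984239-61988363 (mm10), from its upstream flank into the gene. Its scaled pileup was 0.872 in LP replicate 1, 1.63 in LP replicate 2, 2.87 in HP replicate 1 and 4.70 in HP replicate 2. Both HP libraries lay above both LP libraries. The pileups behind these were 10, 25, 33 and 67 fragments, with exact 95% Poisson intervals, for counting error only, of 4.80 to 18.4, 16.2 to 36.9, 22.7 to 46.3 and 51.9 to 85.1. The HP level was 3.08-fold the LP level, a log2 difference of 1.62 ± 0.54 (SE, n = 2 and 2), with an adjusted p of 0.0532 in limma. The difference was 1.72 in replicate set 1 and 1.53 in replicate set 2. It was larger than that of 94.8% of the regions tested, while the mean level was above 28.9% of them.

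Relative to the median of its own library, Myc stood at −1.49 and −0.68 on the log2 scale in LP and at −0.45 and −0.49 in HP. It was thus below the median region in all 4 libraries, and farthest below in LP replicate 1. On this relative scale the HP minus LP difference was 0.61. On the scaled pileups, the log2 difference was 1.98 without HP replicate 1 and 1.27 without HP replicate 2. It was 1.17 without LP replicate 1 and 2.08 without LP replicate 2. Each of these fits leaves 1 library in a population, so no call is given. The size of the difference turned on which library entered the fit.

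The peaks within the Myc promoter region did not share 1 summit. LP replicate 1 had a single peak of 414 bp with its summit 1608 bp downstream of the start, at 0.872. LP replicate 2 had 3 peaks, with summits at −34, 1658 and 2663 bp and scaled pileups of 1.63, 1.50 and 1.24. HP replicate 1 had 5 peaks, among them summits at −21, 1632 and 2626 bp with scaled pileups of 2.70, 2.18 and 2.87. HP replicate 2 had 1 peak of 4067 bp with a scaled pileup of 4.70 at 351 bp. A peak at the start itself was thus called in LP replicate 2 and in both HP libraries, and the covered length was 414 and 2176 bp in LP against 2351 and 4067 bp in HP. Near the end of the gene a second, shorter region at chr15:61989231-61989615, over coding sequence, was called at 1.11 in LP replicate 2 and at 0.842 in HP replicate 2, and in neither library of replicate set 1. No region of the Myc gene itself was therefore called in HP alone.

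Mycn, best known from neural crest tumours, had 1 region in its whole window, chr12:12941990-12943000, just upstream of its start. Its scaled pileup was 0.698 and 0.716 in LP and 1.12 in HP replicate 2, and it was not called in HP replicate 1. These levels rest on 8, 11 and 16 fragments, near the smallest pileup of 5 or 6 fragments at which any peak was called. Mycl, the family member first found in lung tumours, had its promoter region at chr4:122995568-122996918. It was not called in LP replicate 1, and reached 0.716 in LP replicate 2, 1.31 in HP replicate 1 and 1.19 in the other HP library. The other regions at Mycl's own starts, 2 in number, were each called in 1 library, at 0.391 in LP replicate 2 and 0.784 in HP replicate 1. Neither gene could be tested across all 4 libraries. At this depth an uncalled region is one below the caller's threshold and not one without acetylation.

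Max, the shared partner of every member, had a promoter region at chr12:76961294-76963032. The scaled pileup there was 3.92 and 5.28 in LP against 7.14 and 11.4 in HP, so the groups did not overlap. The log2 difference was 0.99 ± 0.54 (adjusted p = 0.157 in limma), and −0.02 relative to the library medians. The log2 difference was 1.33 without HP replicate 1 and 0.65 without HP replicate 2. It was 0.78 without LP replicate 1 and 1.20 without LP replicate 2. Of the 6 regions in the Max window, 5 were called in a single library, at scaled pileups of 0.521 to 0.772.

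Mnt, the most widely expressed of the Max-binding repressors, had a promoter region of 3974 bp at chr11:74829301-74833274. Its scaled pileup was 6.89 and 3.78 in LP against 7.31 and 10.6 in HP. LP replicate 1 lay close to HP replicate 1, and the log2 difference was 0.09 in replicate set 1 and 1.49 in replicate set 2. The fitted difference was 0.79 (adjusted p = 0.231). A further region in the gene, at chr11:74837262-74839091 beside another annotated start, showed the same order of libraries, with 3.05 and 1.37 in LP against 3.48 and 5.26 in HP (log2 difference 1.07, adjusted p = 0.137).

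Mga, the member with a T-box, had a promoter region at chr2:119896711-119898166. Its levels were 2.88 and 2.93 in LP against 2.79 and 7.23 in HP. Only HP replicate 2 stood above the other libraries, and the groups overlapped. The log2 difference was 0.63 (adjusted p = 0.316). It was −0.06 without HP replicate 2, and 1.32 without HP replicate 1.

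Mxd1, a Max-binding repressor known from differentiating cells, had one of the highest promoter levels of the network, at chr6:86668402-86670182. Scaled pileups were 6.89 and 6.64 in LP against 12.3 and 13.5 in HP. The replicates of each population lay close together and the groups were apart. The log2 difference was 0.93 (adjusted p = 0.177), with 0.83 in replicate set 1 and 1.02 in replicate set 2, and −0.08 relative to the library medians.

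Mxd4, of the same group, had a promoter region at chr5:34186488-34187793 with scaled pileups of 5.06 and 3.91 in LP against 7.31 and 9.19 in HP. The groups did not overlap, and the log2 difference was 0.88 (adjusted p = 0.193). An adjacent region with its summit at −530 bp from the start, at chr5:34188041-34188691, was not called in LP replicate 1 and stood at 1.95 in LP replicate 2, 2.00 in HP replicate 1 and 6.03 in HP replicate 2. Its value in LP replicate 2 was near that in HP replicate 1.

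Mxi1, also named Mxd2, had the highest level of any member region in HP replicate 2. Its promoter region, chr19:53310417-53315132, stood at 9.07 and 4.75 in LP against 9.14 and 14.1 in HP. LP replicate 1 and HP replicate 1 differed by a log2 of 0.01, and the fitted difference was 0.79 (adjusted p = 0.230). The highest summit lay 3162 bp inside the gene, and a summit near the start itself stood at 2.27 in LP replicate 1 (623 bp), 3.65 in LP replicate 2 (257 bp) and 7.40 in HP replicate 1 (261 bp). In HP replicate 2 a single peak ran over both positions. A second start of Mxi1, at chr19:53329131-53330557, had scaled pileups of 3.49 and 2.21 in LP against 4.53 and 4.91 in HP (log2 difference 0.76, adjusted p = 0.242). Between these starts, a region at chr19:53325003-53326540 was not called in LP replicate 1 and stood at 1.63 in LP replicate 2, 3.66 in HP replicate 1 and 6.66 in HP replicate 2.

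The order of mean promoter levels was Mxd1 (9.82), Mxi1 (9.27), Mnt (7.14), Max (6.94), Mxd4 (6.37), Mga (3.96), Myc (2.52), Mycl (1.07) and Mycn (0.845), where Mycl and Mycn are means over the 3 libraries with a value, and not the same ones. In the LP and HP libraries of replicate set 2, where both were called, they stood close together. Each pair of neighbours in this order had overlapping ranges over the libraries. A summit pileup is a height at 1 base and not a sum over the gene. It is, however, the highest summit of a region chosen among those near any start of the gene. Such regions numbered 8 at Mnt, 7 at Mxi1, 3 each at Mxd1, Mxd4, Mga and Mycl, 2 each at Max and Myc and 1 at Mycn. The effect of these numbers on the order was not tested. The Max-binding repressors Mnt, Mxd1, Mxd4 and Mxi1 each stood above Myc in every library, and Mga did so in 3, the exception being HP replicate 1.

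In 6 of the 7 promoters both HP values lay above both LP values, Mga being the exception, and the same held for 74.8% of all regions tested. With each library set relative to its own median, 1 of the 7, Myc, kept both HP values above both LP values, beside 12.1% of all regions tested. The median of the 7 was then −0.13, with 6 below 0 and Myc above, while the median of all regions tested was −0.09 and 58.5% of them were below 0. All 7 were above 0 in replicate set 2, where the median of all regions tested was 1.30, and 6 of 7 in replicate set 1, where it was 0.57.

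**Figure D2:**
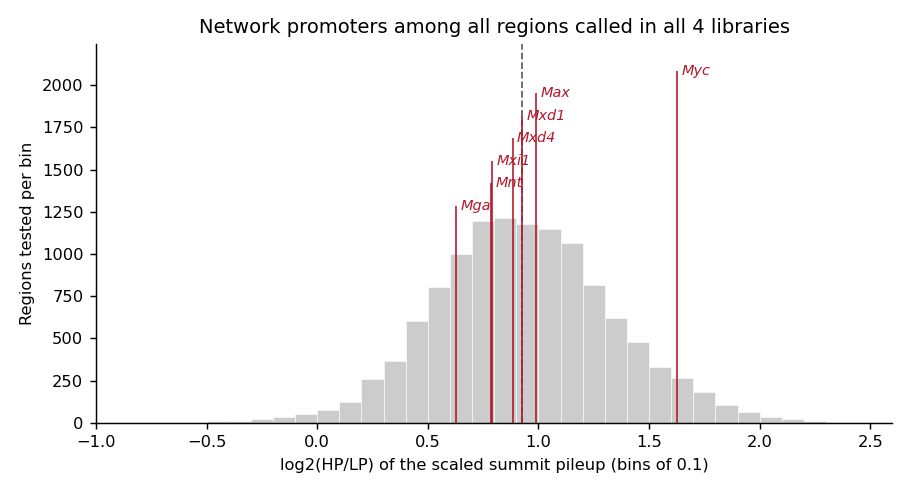
Number of regions tested (vertical axis) by log2 difference in scaled pileup, HP over LP, in bins of 0.1, with the 7 member promoters as red lines whose heights only separate the names and the median of all regions, 0.92, as a dashed line. Mga to Max stand within the bulk of the distribution and Myc, at 1.62, stands in its upper tail.

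**Figure D3:**
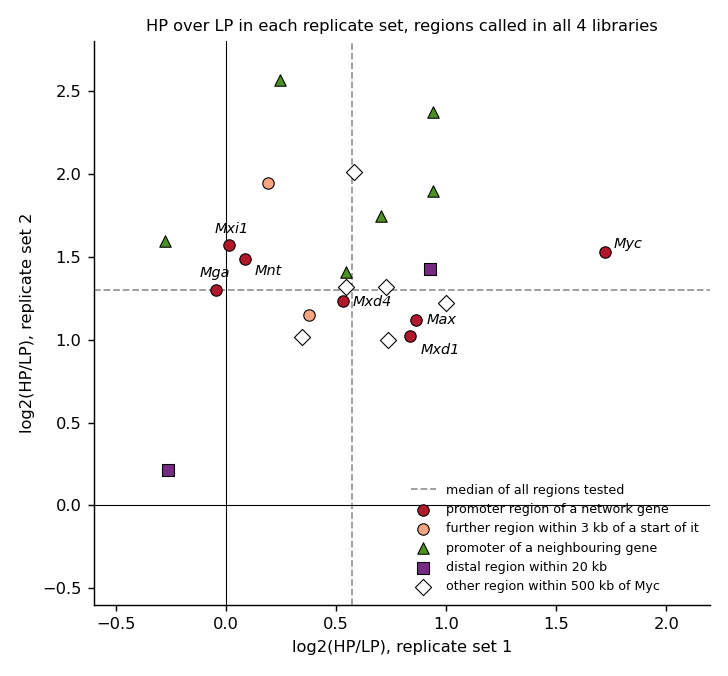
Log2 difference in scaled pileup, HP over LP, in replicate set 1 (horizontal) and set 2 (vertical) for regions of the windows called in all 4 libraries, with dashed lines at the medians of all regions tested, 0.57 and 1.30. Myc lies farthest right at 1.72, whereas Mga, Mxi1 and Mnt lie near 0 in set 1 and above 1 in set 2.

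Over the whole series, 12084 of the 182956 merged regions were called in all 4 libraries, and 2020 of these were distal. Of the 80 regions in the 20 kb windows, 32 lay within 3 kb of a start of the gene itself, 19 at a start of another gene and 29 were distal, and of these 9, 6 and 2 were called in all 4 libraries. A single library accounted for 47 regions (58.8%, beside 81.7% of all merged regions). The 2 distal regions of these windows called in all 4 libraries lay in Mnt and Mxi1. Neither passed the test, and of all distal regions tested 8.56% were called higher in HP.

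The Mnt region, over a coding exon at chr11:74842660-74843296, had scaled pileups of 1.05 and 0.847 in LP against 0.871 and 0.982 in HP. The groups overlapped and the log2 difference was −0.03 (adjusted p = 0.964). The Mxi1 region, in an intron at chr19:53359164-53362119, had 0.872 and 0.912 in LP against 1.65 and 2.46 in HP. Both HP libraries were higher, with a log2 difference of 1.18 and an adjusted p of 0.115. The distal region with the Mxd1 E-box, chr6:86655170-86657152, was not called in LP replicate 1 and stood at 1.24 in LP replicate 2, 1.31 in HP replicate 1 and 2.10 in HP replicate 2.

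Regions called in both HP libraries and in neither LP library numbered 4 of the 80 (5%), beside 3.94% of all merged regions. No region of the 20 kb windows was called in both LP libraries and in neither HP library, a class that held 0.249% of all regions. Mnt had 2 of the 4, at chr11:74827855-74828270 upstream of its start (0.958 and 1.05 in HP) and at chr11:74834183-74835097 in an intron (1.22 and 1.54). Mga had 1 in an intron (0.697 and 0.702), and Mxi1 had 1 in an intron at chr19:53364814-53365457 (0.784 and 0.842). All 4 were low beside the promoters of these genes. With peaks at a q-value of at most 0.01 there were 2 such regions, and in replicate set 1 alone 25 regions of the windows were called in HP and not in LP and 5 the other way, beside 24.6% and 22.5% of all merged regions. In replicate set 2 alone the counts were 22 and 11, beside 26.3% and 22.4%.

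**Figure D4:**
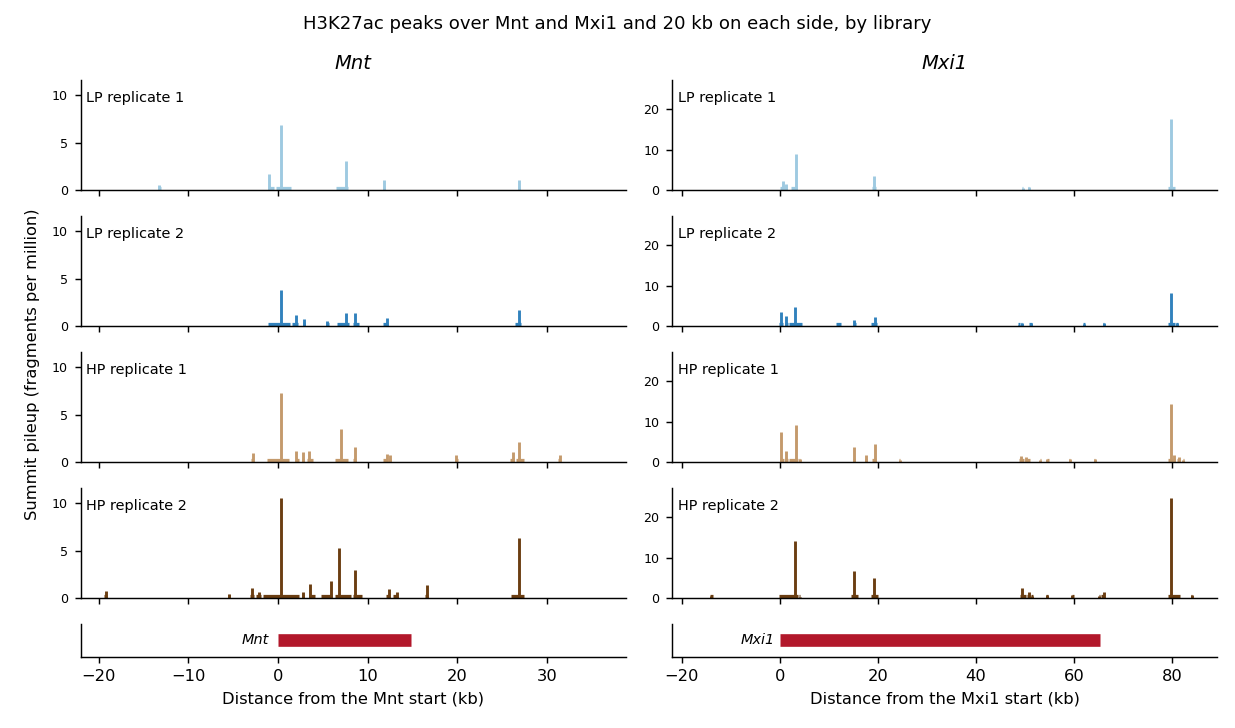
Peaks over Mnt (left) and Mxi1 (right) and 20 kb on each side, 1 row per library, by distance from the gene's start in kb; each vertical line is a summit with its scaled pileup and the thick base line is the peak's width. The tallest Mnt summits stand at its start in every library, those of Mxi1 near 3 kb and, beyond its end, at the promoter of a neighbouring gene, and the Mnt window holds 6 and 8 peaks in LP and 13 and 14 in HP.

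The windows held 28 and 50 peaks in the LP libraries and 56 and 54 in the HP libraries. The ratio of HP to LP peaks was 2.00 in replicate set 1 and 1.08 in replicate set 2, beside 1.12 and 1.07 over all peaks. LP replicate 1 alone stood apart here, and it also had the shortest peak list. With every list cut to 57942 peaks, the windows held 28 and 48 peaks in LP and 54 and 45 in HP. Peaks of the full lists covered 16440 and 33481 bp in LP against 32688 and 50481 bp in HP. Promoters of neighbouring genes in the windows, 6 regions called in all 4 libraries, had a median log2 difference of 1.32, above that of the members, and none passed the adjusted threshold.

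Within 500 kb of Myc, all 6 further regions called in all 4 libraries lay on the side of Pvt1, a long noncoding RNA gene whose introns are known to hold Myc enhancers. On the 5′ side of Myc there were 25 regions, of which 24 were called in a single library and 0 in all 4. On the 3′ side there were 93, of which 6 were called in all 4 libraries and 69 in a single library. Pvt1 itself held 82 regions. Of all 182956 merged regions, 81.7% were called in a single library and 12084 regions in all 4. The difference between the sides was not tested. Peaks on the 5′ side numbered 10 and 7 in LP against 7 and 2 in HP, and on the 3′ side 26 and 40 in LP against 42 and 46 in HP. In every library the 3′ side held more peaks than the 5′ side.

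The highest of these regions was the Pvt1 promoter, chr15:62037213-62041305, whose summit was 52549 bp from the Myc start. Its scaled pileup was 3.58 and 3.52 in LP against 5.92 and 8.77 in HP, above the Myc promoter in every library. The log2 difference was 1.02 (adjusted p = 0.147). Next was a region in Pvt1 at chr15:62078317-62080787, 94423 bp from the Myc start, with 1.57 and 1.04 in LP against 2.35 and 4.21 in HP (log2 difference 1.30, adjusted p = 0.0953). The region at chr15:62118202-62120084 had 1.13 and 1.24 in LP against 1.65 and 3.09 in HP, a log2 difference of 0.93 (adjusted p = 0.175).

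Of the 3 lower ones, chr15:62120583-62122389 had 0.959 and 1.04 in LP against 1.22 and 2.10 in HP (log2 difference 0.68, adjusted p = 0.285). The region at chr15:62132131-62133899 had 0.785 and 0.912 in LP against 1.31 and 1.82 in HP (log2 difference 0.87, adjusted p = 0.198). The most distant, chr15:62327584-62329871, lay 343692 bp from the Myc start and had 0.785 and 0.782 in LP against 1.57 and 1.82 in HP (log2 difference 1.11, adjusted p = 0.127). In all 6 regions both HP libraries lay above both LP libraries, as in 74.8% of all regions tested, and none passed the test. Their median log2 difference was 0.98, −0.03 relative to the library medians, beside 1.62 and 0.61 for the Myc promoter.

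**Figure D5:**
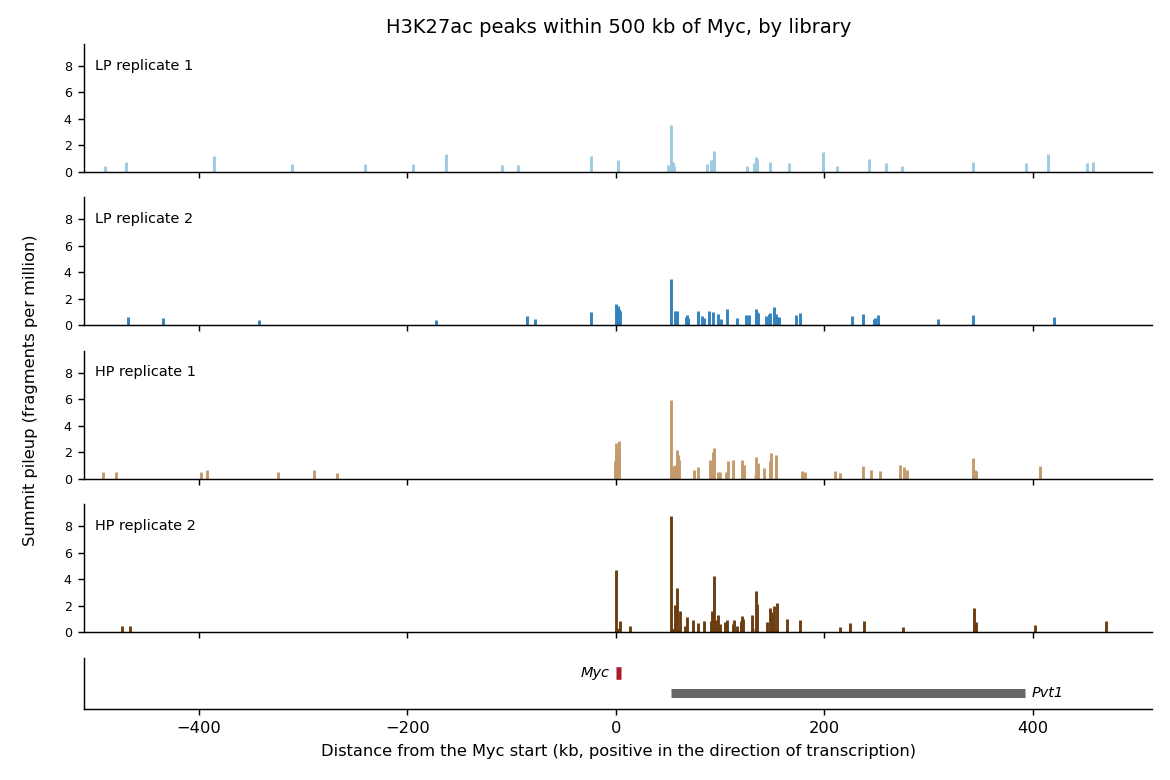
Peaks within 500 kb of Myc, 1 row per library, by distance from the Myc start in kb; each vertical line is a summit with its scaled pileup per 1000000 fragments, and the bottom row shows the extent of Myc and Pvt1. Summits concentrate between 50 and 200 kb downstream, are tallest at the Pvt1 promoter (8.77 in HP replicate 2), and the 5′ side holds 10 and 7 peaks in the LP libraries and 7 and 2 in the HP libraries, the tallest at 1.40 in LP replicate 1.

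In the Myc window, 6 of 120 regions (5%) were called in both HP libraries and no LP library, beside 3.94% of all merged regions. Pvt1, which held 82 of the 120 regions, held all 6. The highest, chr15:62134160-62134461, whose sequence is given above, had scaled pileups of 1.92 and 1.54 in HP. It lay 148906 bp from the Myc start. Those at chr15:62106197-62106956 (1.39 and 1.19) and chr15:62097869-62098472 (1.39 and 0.631) followed. The remaining ones, at chr15:62064523-62064756 (0.871 and 0.702), chr15:62084963-62085727 (0.522 and 0.631) and chr15:62200760-62201028 (0.435 and 0.421), rested on 5 to 10 fragments each.

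Of the 120 regions of the Myc window, 1 went the other way, beside 0.249% of all merged regions. At chr15:61961528-61961934, with its summit at −23790 bp from the Myc start, a peak was called in both LP libraries, at 1.22 and 1.04 from 14 and 16 fragments, and in no HP library. These LP values were of the size of the Myc promoter's own peaks in LP. The HP libraries had called peaks elsewhere down to scaled pileups of 0.435 (replicate 1) and 0.351 (replicate 2). Even so, the region is only below the caller's threshold in HP, and its acetylation there is not known. Neither count of one-sided regions was tested. In replicate set 1 alone, 33 of the 120 regions were called in HP and not in LP, beside 24.6% of all merged regions. The reverse held for 23, beside 22.5%. In replicate set 2 alone the counts were 33 and 26, beside 26.3% and 22.4%.

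Over the 4 log2 levels, the promoter regions nearest to that of Myc, by Euclidean distance among those of 10136 other genes, were those of Polr3k (0.17), a subunit of RNA polymerase III, Fabp5 (0.18), a fatty acid binding protein, and Zfp799 (0.20), a zinc finger gene. Their log2 differences were 1.70, 1.58 and 1.67. Likeness over 4 libraries is a description.

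Other genes that act with the network, 22 in a fixed list, were measured in the same way. A promoter region called in all 4 libraries was found for 20 of them, and for the 10136 other genes compared with Myc, beside 21938 protein-coding genes. None of the 20 passed an adjusted p of 0.05 in limma, 8 had a higher HP level at an unadjusted p below 0.05, near the 33.4% of all promoter regions, and none a lower one. Their median log2 difference was 0.94, −0.07 relative to the library medians, near that of all promoter regions. Mxd3, the remaining member of the Mxd group, had 4.27 and 2.41 in LP against 2.87 and 5.82 in HP, with a log2 difference of 0.35 (adjusted p = 0.553), so its groups overlapped.

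Among the corepressors, Sin3a, the scaffold recruited by Mxd proteins, had 6.02 and 4.04 in LP against 4.62 and 8.49 in HP (log2 difference 0.34, adjusted p = 0.559). Its paralog Sin3b had 2.79 and 4.43 in LP against 6.53 and 8.77 in HP (1.11, adjusted p = 0.128). Zbtb17, the Myc partner Miz-1, had the highest levels of this list, 19.9 and 11.9 in LP against 32.6 and 38.0 in HP (1.19, adjusted p = 0.113). Fbxw7, which marks Myc protein for degradation, had 4.45 and 6.32 in LP against 9.23 and 9.82 in HP (0.84, adjusted p = 0.206). The glucose-sensing branch was unevenly covered, since Mlxip had 6.28 and 5.47 in LP against 12.8 and 14.1 in HP (1.20, adjusted p = 0.112), Mlx was not called in LP replicate 1, and Mlxipl was called in HP replicate 1 alone.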

How the data were processed

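H3K27ac ChIP-seq peaks of 2 LP and 2 HP libraries were analysed. The authors trimmed the reads with Trimmomatic 0.33, aligned them to mm10 with Bowtie2 2.5.1 (versions from the submitters' processing notes) and ran MACS 3.0.0b1 in narrow-peak mode on each library (q-value cutoff 0.05), with the IgG library of its own replicate set as control. The deposited pileup signal is the number of fragments over a summit, without scaling. The authors' fold enrichment (a ratio to local background) and −log10 q-values were used to describe or filter peaks only.

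Pileups were scaled to 1000000 fragments per library, and the highest summit per merged region was compared by limma 3.58.1 on log2 values over the 12084 regions called in all 4 libraries. Promoters lay within 3 kb of a GENCODE start. The limma step was run on simulated regions with known changes as a check of the code, without the library-wide shift of these data. The design text says that equal DNA was used within each replicate set, so the numbers pair the samples, although the replicate differences of LP and HP correlated at only 0.0153 over the regions. Sequences came from RefSeq (GRCm38.p6, the build of mm10); 1 window is not reported here.

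The members and lists were chosen with earlier results of these data known. All 9 genes are named; a gene's promoter region is the one called in most libraries, then of highest mean level, and up to 3 distal regions per gene and 6 around Myc were eligible by the same order, with every one-sided region. Alternatives were other scalings, the replicate block, mean summits, stricter peaks, overlap, windows and leaving out libraries.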

Additional observations from a re-analysis of the deposited data

How the results depend on the processing

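With each library centred on its median, the median log2 difference became −0.13 over the 7 promoters, −0.44 over the 2 distal regions and 0.012 within 500 kb of Myc, and with quantile normalization it became 0.044, −0.37 and 0.073. Centring turned Max to −0.021, Mnt to −0.22, Mga to −0.38, Mxd1 to −0.084, Mxd4 to −0.13 and Mxi1 to −0.22, and quantile normalization turned Mnt to −0.021, Mga to −0.37 and Mxd4 to −0.012. Myc was above 0 in all 11 alternatives (0.57 to 2.08). Its adjusted p in limma was 0.9997 with centring. The distal median was 1.18 with peaks at a q-value of at most 0.01 (1 region), with promoters defined by 1 kb and with 50 kb windows (3 regions each). Regions called in both HP and no LP library at the 9 genes numbered 2 at the stricter q-value and 10 with 50 kb windows, and 2 with 100 kb around Myc. Leaving out either replicate set gave 22 to 25 at the 9 genes (5 to 11 called in LP and not in HP) and 33 to 33 within 500 kb of Myc (23 to 26 in LP and not in HP). The share over all merged regions was 24.6% to 26.3%, and 22.4% to 22.5% for LP and not HP. Leaving out 1 library gave −0.060 to 1.32 for Mga. Over the 7 promoters and 77 alternatives in all, 64 kept direction and side of the threshold. Another 10 reversed, 6 of these by centring, which takes 1.01 off every region alike. The rest were fits without HP replicate 1, with log2 differences of 1.98 for Myc, 1.33 for Max and 1.32 for Mga. How many of all regions change side of the threshold in such a fit is not given here, so no call is read from it. In a fit that keeps both LP libraries with 1 of HP, the lone HP library is assumed to vary like the others. The replicate block left the log2 difference of Myc at 1.62 with an adjusted p of 0.0662, and changed no call of a member. The cause of the other shifts was not tested. Pileups of 8 to 17 fragments limit Mycn and Mycl, as do 10 and 25 fragments for Myc in LP.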

Other observations

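Genes commonly listed as Myc targets, 20 in number, each had a promoter region called in all 4 libraries. The comparison with Myc above found such a region for 10136 other genes, beside 21938 protein-coding genes in all. Whether the targets differ from other active genes was not tested. Their median log2 difference (HP minus LP) was 0.85, −0.16 relative to the library medians, beside 0.90 over all promoter regions tested. In limma 0 of the 20 passed an adjusted p of 0.05, and 7 had a higher HP level at an unadjusted p below 0.05, as did 33.4% of all promoter regions. The largest differences were those of Ppan, a ribosome assembly factor, with scaled pileups of 1.74 and 2.28 in LP against 4.88 and 7.23 in HP (1.57, adjusted p = 0.0583), and of Cdk4, a G1 kinase, with 2.01 and 3.84 in LP against 4.79 and 13.1 in HP (1.51, adjusted p = 0.0661). The smallest was that of Srm, spermidine synthase, with 3.40 and 4.30 in LP against 3.40 and 5.61 in HP (0.19, adjusted p = 0.741). Odc1, which starts polyamine synthesis, had 12.6 and 8.99 in LP against 9.06 and 19.4 in HP (0.32, adjusted p = 0.589), so that its groups overlapped.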
